A study of Heterocephalus glaber with 9 samples.

Results

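The genes of the constitutive proteasome were followed in the livers of old and young naked mole-rats. They were chosen by name, as every row of the count table whose symbol starts with PSMA, PSMB, PSMC, PSMD, PSME, PSMF or PSMG and a digit, together with POMP, and without the interferon-inducible PSMB8, PSMB9, PSMB10, PSME1 and PSME2. This gave 45 of the 16339 rows. Of these, 44 code for a subunit, a regulator or an assembly chaperone of the particle, whereas PSMC3IP, a recombination factor named after an ATPase of the cap that it binds, matches by name only and was counted apart. The filter on low counts was passed by 43 of the 45. The other 2, PSMA8 and PSMB11, code for the core subunits of testis and thymus in other mammals and had at most 1 count in any liver, which left 42 proteasome genes for the comparison.

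The old livers came from 3 animals, A, B and C, labelled as 20, 30 and 20 years of age and as non-breeders. For A and C the study describes a higher age than the labels, which were used here. They were set against the livers of 6 young animals of 2.7 to 4.1 years, for which the labels give no reproductive status and whose titles are marked as re-used. All 9 animals were male, none is labelled as treated or genetically altered, and each gave 1 library of polyadenylated RNA. The prefixes of the library descriptions (140912 for the young livers, 160208 for old livers B and C, and "merged" for old liver A) never cover both ages. The labels do not say what these prefixes mean, and age cannot be told apart from whatever they mark.

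The proteasome degrades proteins that carry ubiquitin chains. Its core, the 20S particle, is a barrel of outer alpha rings, which form the gate, and inner beta rings, in which PSMB5, PSMB6 and PSMB7 hold the cutting sites. The 19S cap recognizes ubiquitin, removes it and threads the substrate into the barrel with a ring of ATPases, while POMP and the PSMG chaperones assemble the core and PSMD5, PSMD9 and PSMD10 help to assemble the cap. Subunits are needed in equal numbers, and in mammals the transcription factor NFE2L1 is known to raise their genes together when proteasome activity falls short.

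The libraries held 15176226 to 20048731 counts in the old livers and 14541856 to 20464409 in the young livers, of which the 45 genes took 0.236% to 0.325% in the old and 0.268% to 0.303% in the young. One library of each age stood apart from the others of its group. In old liver A, albumin took 1.41% of the counts, against 6.99% to 7.69% in old livers B and C and 7.86% to 14.8% in the young livers. The gene MTRNR2L4 took 10.1% of the counts in old liver A and 2.43% and 3.07% in B and C, against 11.9% in young liver 3 and 3.55% to 4.17% in the other young livers. The liver of the oldest young animal, young liver 3, correlated across genes at a Spearman rho of 0.901 to 0.915 with the rest of its group, whose values among themselves were 0.970 to 0.988. Old liver A was at 0.841 and 0.853 with B and C, and B was at 0.989 with C (12277 genes, which are not independent replicates). All 7 hepatocyte markers were counted, and their summed level was 25232, 99043 and 85866 CPM (counts scaled to a common library size after TMM normalization) in old livers A, B and C, against 125003 to 217106 CPM in young livers, with 0 of 7 past the test below. Old liver A also lay outside the other livers in the summed markers of Kupffer cells (66.2 CPM, against 210 to 390 CPM in all others), cholangiocytes (63.2 CPM, against 170 to 302 CPM) and endothelium (743 CPM, against 218 to 404 CPM). The Kupffer cell sum was 390 and 353 CPM in old livers B and C, both above the young range of 210 to 318 CPM. Of the 6 endothelial markers, 1 passed the test below as higher and 1 as lower, so the sum does not stand for each of them. Summed stellate cell markers were at 45.4 to 71.7 CPM in old and 95.4 to 159 CPM in young livers, and 3 of 6 passed the test below as lower. Erythroid markers were at 30.1 to 55.9 CPM in old and 114 to 573 CPM in young livers, whereas T and NK cell markers were at 15.9 to 25.7 CPM in old and 8.76 to 13.9 CPM in young livers. None of the marker genes in the table was at 0 in all livers. In bulk tissue, fewer cells of a type and less RNA per cell cannot be told apart, and the part of these shifts in the values that follow was not tested.

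With edgeR's quasi-likelihood test and Benjamini-Hochberg adjustment over 12277 genes, 0 of the 42 proteasome genes were down-regulated and 0 were up-regulated in old livers at an FDR of 0.1. Among all genes tested, 3.65% were down-regulated and 11.7% up-regulated. At an unadjusted p under 0.05 there were 4 of the 42 (POMP, PSMA3 and PSMB7 below 0 and PSMD3 above 0 in log2 fold change, log2FC, of old over young), compared with 29.1% of all genes. The sign, in contrast, was uneven, with a log2FC below 0 in 35 of the 42, against 49.2% of all genes, and the median was -0.40 beside 0.02 over all genes. In 8 of the 42 all old livers lay below all young livers (POMP, PSMA3, PSMA7, PSMB7, PSMC2, PSMC3, PSMD6 and PSMD13), compared with a smaller share of all genes, 8.01%. In 1 of the 42, PSMD3, they lay above, compared with a larger share of all genes, 9.83%. The median was -0.16 without old liver A, beside -0.02 over all genes in that fit, and 35 of 42 were again negative. Leaving out that liver made the log2FC smaller by over 1.5 times in 28 of the 42 genes, larger by over 1.5 times in 2 (PSMA5 and PSMD4) and of opposite sign in 6 (PSMA6, PSMB1, PSMC4, PSMD5, PSME3 and PSME4). POMP, PSMA3, PSMB3, PSMC5, PSMD13 and PSMG1 moved by less. These changes were not counted over all genes, of which liver A held the lowest of the 9 values in 32.5% and the highest in 36.2%.

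**Figure D1:**
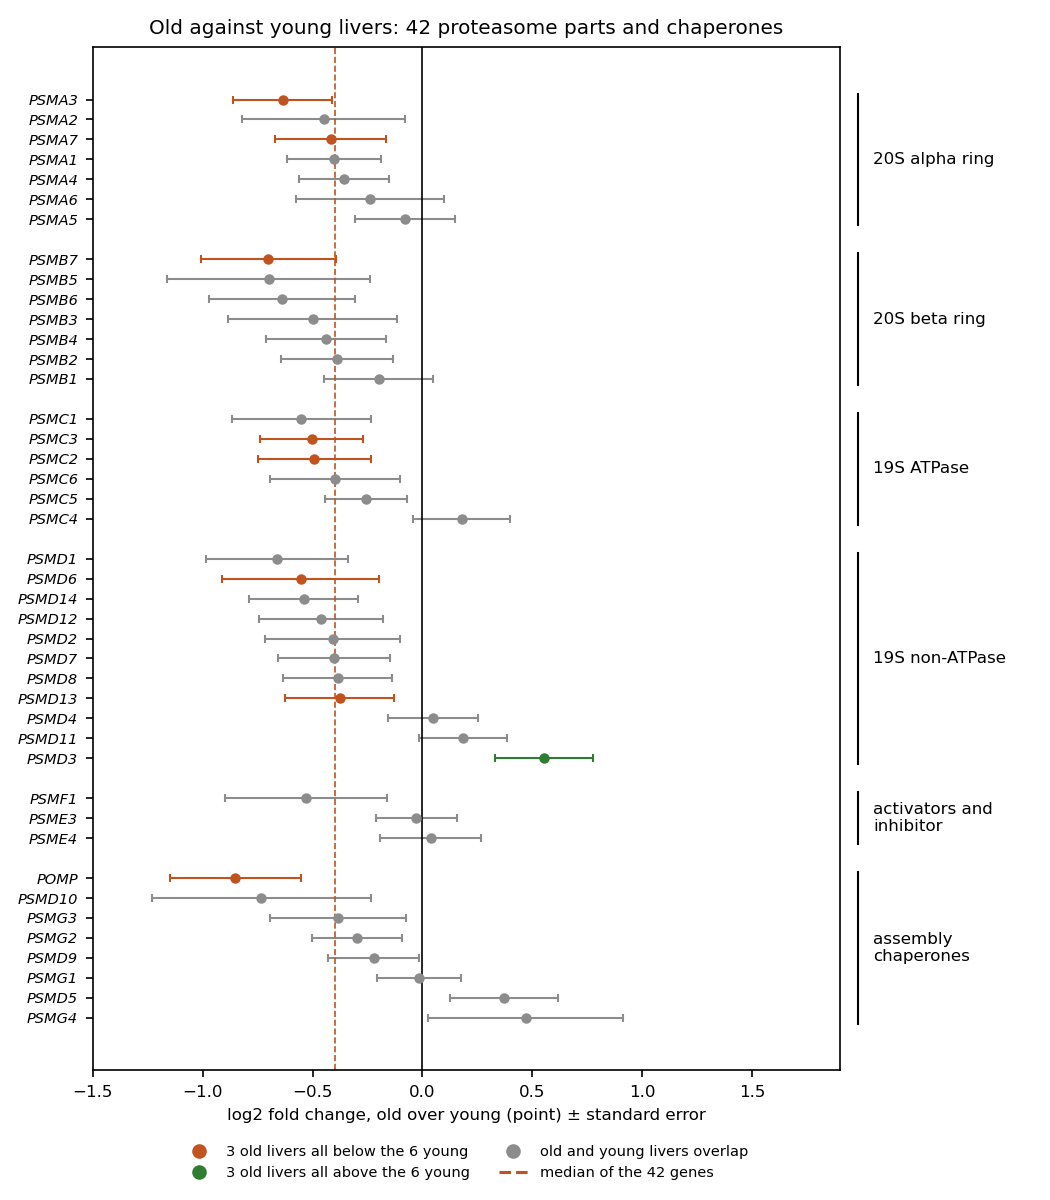
Log2 fold change (log2FC) of old over young livers (point) with its standard error (SE, bar) for the 42 proteasome genes tested, grouped by place in the particle. Most points lie left of 0, with a median of -0.40 (dashed line), and the 8 genes whose old livers all lay below the young ones are spread over 5 of the 6 groups.

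The alpha ring was represented by 7 genes. None passed the threshold, all 7 had a negative log2FC (6 of 7 without old liver A, without young liver 3 or with limma voom), and the median was -0.40. PSMA3, the alpha subunit of lowest p, had 36.0, 51.9 and 50.6 CPM in old livers A, B and C, against 58.9 to 93.9 CPM (median 70.9) in young livers. The groups did not overlap, and young liver 3 was the highest. The means were 46.2 ± 8.79 CPM in old and 71.7 ± 12 CPM in young livers (SD, n = 3 and 6), a log2FC of -0.64 (standard error, SE, 0.23, edgeR FDR 0.103). PSMA2 showed another pattern, with 21.8, 72.6 and 81.8 CPM in old livers A, B and C and 54.9 to 96.6 CPM (median 83.3) in young livers. Here B and C lay within the young range, of which young liver 3 was the lowest, and A lay below it. The log2FC was -0.45 (SE 0.37, edgeR FDR 0.424). It was -0.06 without liver A. The other 5 alpha subunits ranged from -0.42 for PSMA7, whose old livers lay below the young ones by less than the rounding, to -0.08 for PSMA5.

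The median of the beta ring was -0.50, and -0.23 without old liver A, again with all 7 genes negative (6 of 7 without old liver A or with limma voom) and none past the threshold. The 3 catalytic subunits had log2FCs of -0.70 (PSMB5), -0.64 (PSMB6) and -0.70 (PSMB7), and of -0.23, -0.28 and -0.37 in the same order without old liver A. PSMB7, which cuts after basic residues, had 43.9, 110 and 118 CPM in old livers A, B and C and 123 to 159 CPM (median 157) in young livers. Its groups did not overlap, with means of 90.8 ± 40.8 CPM in old and 148 ± 16 CPM in young livers (SD, n = 3 and 6, edgeR FDR 0.158). PSMB5, which cuts after hydrophobic residues, had 21.7 CPM in old liver A, 127 and 139 CPM in B and C, and 123 to 177 CPM (median 160) in young livers. Livers B and C thus fell inside the young range, of which young liver 3 was the lowest. Liver A was 2.80 log2 units below the young mean, the farthest of any of the 42 genes. The standard error of PSMB5 was 0.46, the widest of the 3 (edgeR FDR 0.321). PSMB6, which cuts after acidic residues, had 19.8, 55.2 and 64.2 CPM in old livers A, B and C, and 59.7 to 87.4 CPM (median 73.3) in young livers. Liver A was lowest, B lay just under the young range and C inside it (SE 0.33, edgeR FDR 0.219).

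PSMB4 is a beta subunit without a cutting site, which the study lists as positively selected on the blind mole rat branch. It had 54.0, 104 and 116 CPM in old livers A, B and C and 105 to 159 CPM (median 123) in young livers. Its means were 91.3 ± 32.8 CPM in old and 124 ± 19.4 CPM in young livers (SD, n = 3 and 6), with a log2FC of -0.44 (SE 0.27, edgeR FDR 0.293). The FDR was 0.248 with DESeq2 and 0.564 with limma voom, and it ranged from 0.189 to 0.689 over 18 alternative fits, with a log2FC of -0.17 without old liver A. The difference passed the threshold in none of these fits. The remaining 3 beta subunits, PSMB1, PSMB2 and PSMB3, ranged from -0.50 (PSMB3) to -0.20 (PSMB1), and PSMB3 had 147 CPM in young liver 3 against 45.5 to 61.9 CPM in the other young livers.

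**Figure D2:**
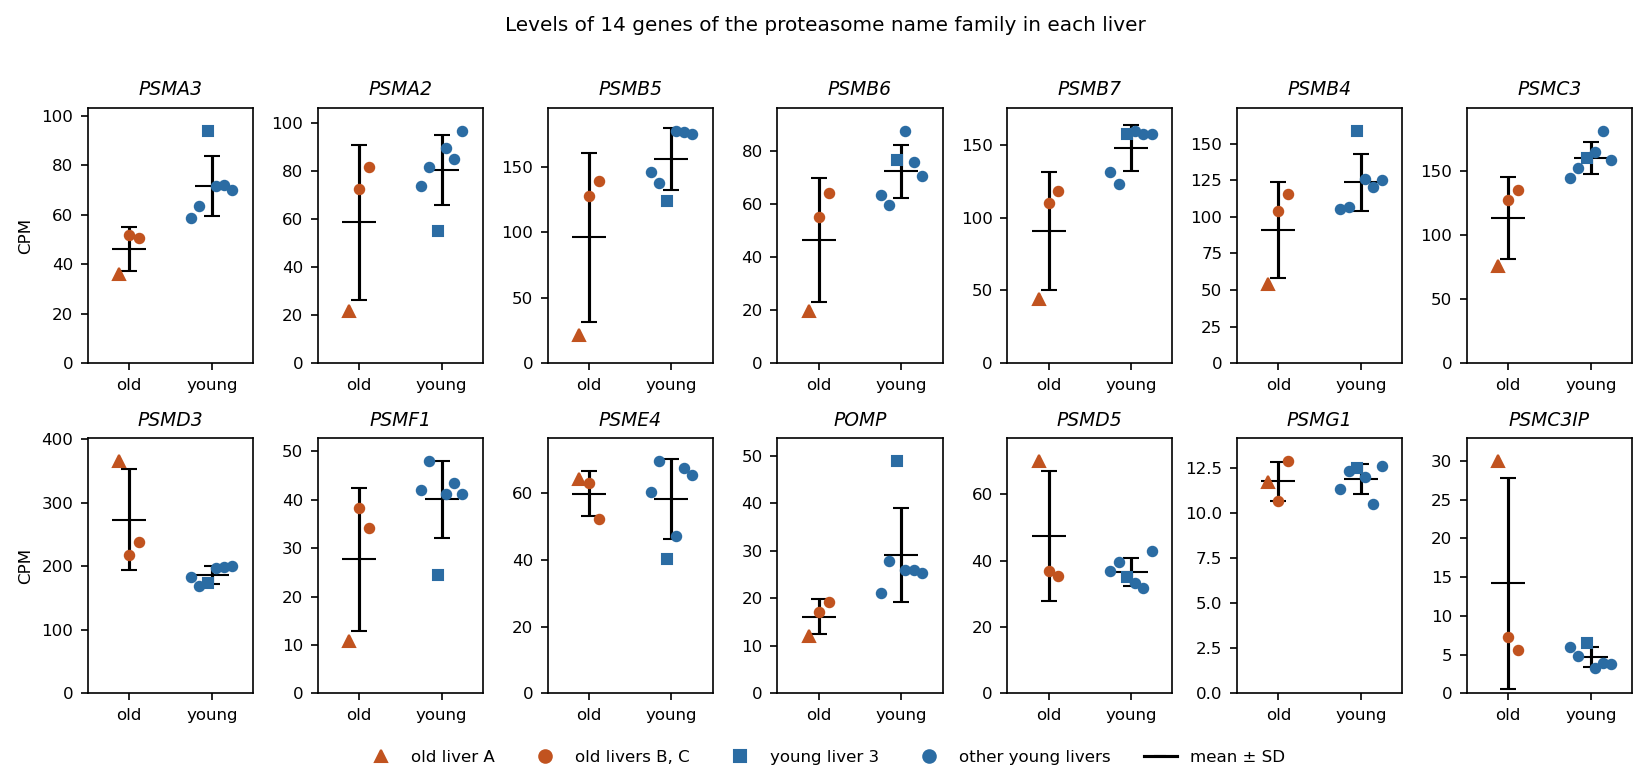
Levels (CPM, linear axes from 0) of 14 genes in the 3 old and 6 young livers, with the mean and SD of each group in black, old liver A as triangle and young liver 3 as square. PSMA3, PSMB7, PSMC3 and POMP show old livers below all young ones and PSMD3 old livers above them, while in PSMA2, PSMB5 and PSMF1 the triangle is lowest and the square is the lowest young liver.

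Of the 6 ATPases at the base of the cap, 5 had a log2FC below 0, the median was -0.44, and none passed the threshold. PSMC3 had the lowest p of the ring and was measured at 76.1, 127 and 135 CPM in old livers A, B and C, against 144 to 181 CPM (median 159) in young livers. The groups were separate. Means of 113 ± 32.1 CPM in old and 160 ± 12.4 CPM in young livers (SD, n = 3 and 6) gave a log2FC of -0.50 (SE 0.23, edgeR FDR 0.179), and of -0.29 without liver A (edgeR FDR 0.366). PSMC2 was also separate, with 38.0, 84.2 and 74.6 CPM in old livers A, B and C and 87.1 to 102 CPM in young livers (log2FC -0.49, and -0.22 without liver A). PSMC4 was the exception in sign, at 0.18, and rested on liver A, where it had 63.6 CPM against 40.5 and 42.4 CPM in B and C and 34.9 to 54.8 CPM in young livers. Without liver A its log2FC was -0.06. The remaining ATPases, PSMC1, PSMC5 and PSMC6, lay between -0.55 and -0.26.

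The other 11 genes of the cap divided into 8 with negative values (-0.66 to -0.38) and 3 with positive values, and none passed the threshold. PSMD3, a scaffold subunit of the lid, was the only one of the 42 genes whose old livers all lay above the young ones. It had 365, 218 and 238 CPM in old livers A, B and C, against 168 to 201 CPM (median 190) in young livers. Liver A was far above B and C, which in turn exceeded the highest young liver. The means were 274 ± 79.9 CPM in old and 187 ± 14 CPM in young livers (SD, n = 3 and 6), a log2FC of 0.55 (SE 0.22, edgeR FDR 0.135), and of 0.29 without liver A. PSMD6, a lid subunit of the same particle, had the opposite order, with 24.1, 87.4 and 86.8 CPM in old livers A, B and C and 87.9 to 117 CPM in young livers. The count ratio of PSMD3 to PSMD6 was 15.2, 2.49 and 2.74 in old livers A, B and C, against 1.72 to 2.08 in young livers, a contrast picked after the values were seen. PSMD14, the enzyme that takes ubiquitin off the substrate, had a log2FC of -0.54 (edgeR FDR 0.176), and of -0.29 without liver A (edgeR FDR 0.418). PSMD1, the scaffold of the base, had 32.6, 92.9 and 87.3 CPM in old livers A, B and C, against 82.7 to 126 CPM in young livers. Only A lay outside this range, but its lowest value was that of young liver 3. B and C lay below the other young livers (107 to 126 CPM). The log2FC of PSMD1 was -0.66 (edgeR FDR 0.196), and -0.32 without liver A (edgeR FDR 0.423). Without old liver A and young liver 3 it was -0.39 (edgeR FDR 0.0599). PSMD4, a ubiquitin receptor, was at 0.05 and PSMD11, a lid scaffold, at 0.18. In PSMD4 the old livers themselves diverged, with 44.1, 63.1 and 69.5 CPM in A, B and C, against 50.1 to 62.2 CPM in young livers, so that A lay below all young livers and B and C above them.

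Of the 3 regulators that bind the core, the activators PSME3 and PSME4 had values near 0 and the inhibitor PSMF1 did not pass the threshold. PSME4, an activator of the core that acts without ubiquitin, had 64.3, 62.9 and 52.2 CPM in old livers A, B and C, and 40.1 to 69.4 CPM (median 62.9) in young livers. The groups overlapped throughout, with a log2FC of 0.04 (SE 0.23, edgeR FDR 0.924) that turned negative without liver A (-0.02) and under upper quartile scaling (-0.03). PSME3, the nuclear activator, was at -0.03 (SE 0.18). PSMF1, an inhibitor that binds the core, had 10.8, 38.2 and 34.1 CPM in old livers A, B and C, against 24.5 to 47.9 CPM (median 41.6) in young livers. Old liver A was the lowest and young liver 3 the next, while B and C lay below the other young livers (41.1 to 47.9 CPM). The log2FC was -0.53 (SE 0.37, edgeR FDR 0.342), and -0.15 without liver A. Without old liver A and young liver 3 it was -0.25 (edgeR FDR 0.164).

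Among the 8 assembly chaperones, POMP, which is enclosed in the core while the beta ring matures and is then degraded by it, came closest to the threshold. It had 12.1, 17.2 and 19.1 CPM in old livers A, B and C and 21.1 to 48.8 CPM (median 26) in young livers. All old livers lay below all young ones, and young liver 3 was the highest. The means were 16.2 ± 3.63 CPM in old and 29.2 ± 9.88 CPM in young livers (SD, n = 3 and 6), a log2FC of -0.85 (SE 0.30, edgeR FDR 0.1002), and of -0.64 without young liver 3 (edgeR FDR 0.0692). Over 18 alternative fits its FDR ranged from 0.0175 (limma voom) to 0.283 (without old liver A), and 9 of them passed the threshold. PSMG1 is a chaperone of the alpha ring, which the study also lists as positively selected on the blind mole rat branch. It had 11.7, 10.7 and 12.8 CPM in old livers A, B and C, against 10.5 to 12.6 CPM (median 12.2) in young livers. Its livers overlapped fully, old liver A included, and the log2FC was -0.02 (SE 0.19, edgeR FDR 0.962), with signs that changed between fits. PSMD5, which holds the cap ATPases during assembly, had 70.0 CPM in old liver A, 36.8 and 35.3 CPM in B and C, and 31.8 to 42.9 CPM (median 36.1) in young livers. Its log2FC was 0.37 (SE 0.25, edgeR FDR 0.323), and -0.02 without liver A. The other 5 chaperones ranged from -0.73 for PSMD10, with 13 to 85 counts per liver, to 0.47 for PSMG4, and PSMG4 had 40.5 CPM in young liver 3, against 11.2 to 12.2 CPM in the other young livers.

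PSMC3IP, the 1 gene that matched by name alone, was up-regulated in old livers with a log2FC of 1.58 (SE 0.47, edgeR FDR 0.0717). It works with the recombinase DMC1 in meiosis and is no part of the proteasome. PSMC3IP had 30.0 CPM in old liver A, 7.22 and 5.56 CPM in B and C, and 3.31 to 6.54 CPM (median 4.37) in young livers. Old liver A alone was far above the others. Without it the log2FC was 0.43 (edgeR FDR 0.483), and the call was also lost without any 1 of young livers 1, 2, 4, 5 and 6, with values of 1.5 to 1.67 and an FDR of 0.103 to 0.140. Calls fell over the whole table in these fits as well. The share of all genes called higher was 2.13% without old liver A and 1.02% to 6.43% without 1 of these young livers, against 11.7% with all livers.

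Liver by liver, old liver A stood far from the rest. Relative to the young mean of each gene on the log2(CPM + 0.5) scale, the median over the 42 genes was -1.0 in old liver A, -0.16 in B and -0.10 in C, and between -0.12 and 0.08 in the young livers. Over all 12277 genes the median was -0.01 in liver A, with quartiles of -0.97 and 0.99. Liver A had the lowest of the 9 values in 32 of the 42 genes, and the highest in 4 (PSMC4, PSMD3, PSMD5 and PSMD11), compared with 32.5% and 36.2% of all genes. The spread was wide in liver A, from -2.80 (PSMB5) through values near 0 (PSMG1 -0.02, PSMA5 0.09) to 1.0 (PSMG4). Young liver 3 was the highest of 9 in 12 of the 42 genes, compared with 15.7% of all genes, although its median was 0.01. The typical SD on that scale was 0.48 among old livers (0.53 over all genes) and 0.20 among young livers (0.34 over all genes), and 0.13 in the 5 young livers without young liver 3.

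**Figure D3:**
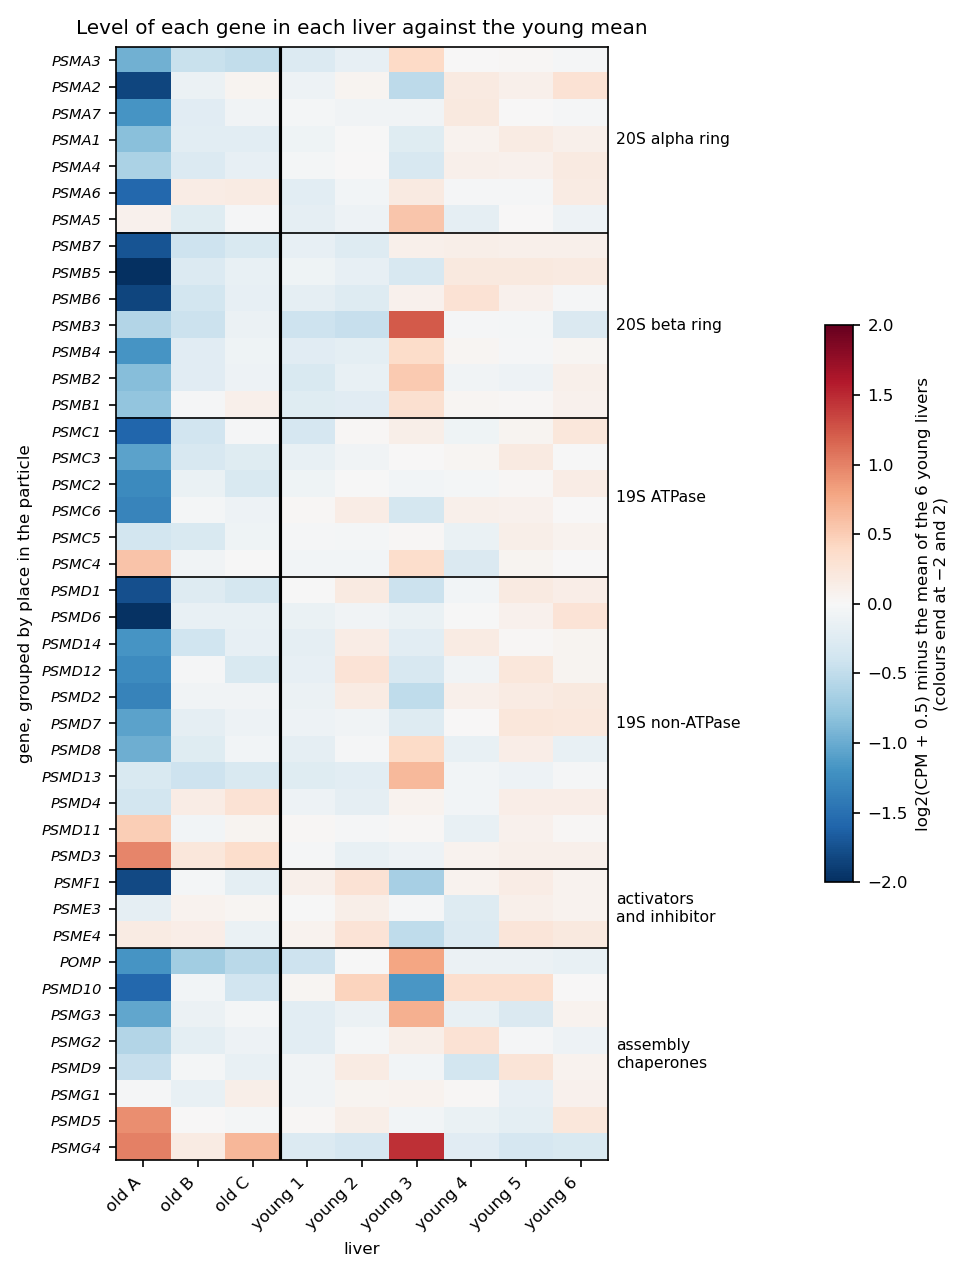
Log2(CPM + 0.5) of the 42 proteasome genes in each of the 9 livers, minus the mean of the 6 young livers, with blue for low and red for high values and colours ending at -2 and 2. The column of old liver A is mostly blue (median -1.0), with PSMD3, PSMD5, PSMC4, PSMD11 and PSMG4 in red, and old livers B (-0.16) and C (-0.10) are pale.

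Summed over classes, the level in liver A relative to young livers differed from class to class. The beta ring genes together had 289, 620 and 688 CPM in old livers A, B and C, against 759 ± 102 CPM in young livers (SD, n = 6), so that liver A held 0.380 times the young mean. This ratio was 0.511 for the alpha ring, 0.616 for the ATPases, 0.825 for the other cap genes and 0.980 for the assembly chaperones. Single genes that were high in liver A carried part of these sums, since the ratio was 0.595 for the other cap genes without PSMD3 and 0.741 for the chaperones without PSMD5, both left out after the values were seen. All 44 genes together came to 1970, 2697 and 2847 CPM in old livers A, B and C and to 3046 ± 180 CPM in young livers (SD, n = 6). Livers B and C averaged 0.910 times the young mean over these 44 proteasome genes and 0.862 times over the beta ring, with B (620 CPM) below and C (688 CPM) within the young range of 638 to 912 CPM. In the alpha ring, by comparison, B had 385 and C 411 CPM, against 395 to 466 CPM in young livers. In the ATPase ring both B (365 CPM) and C (383 CPM) lay below the young range of 404 to 468 CPM.

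**Figure D4:**
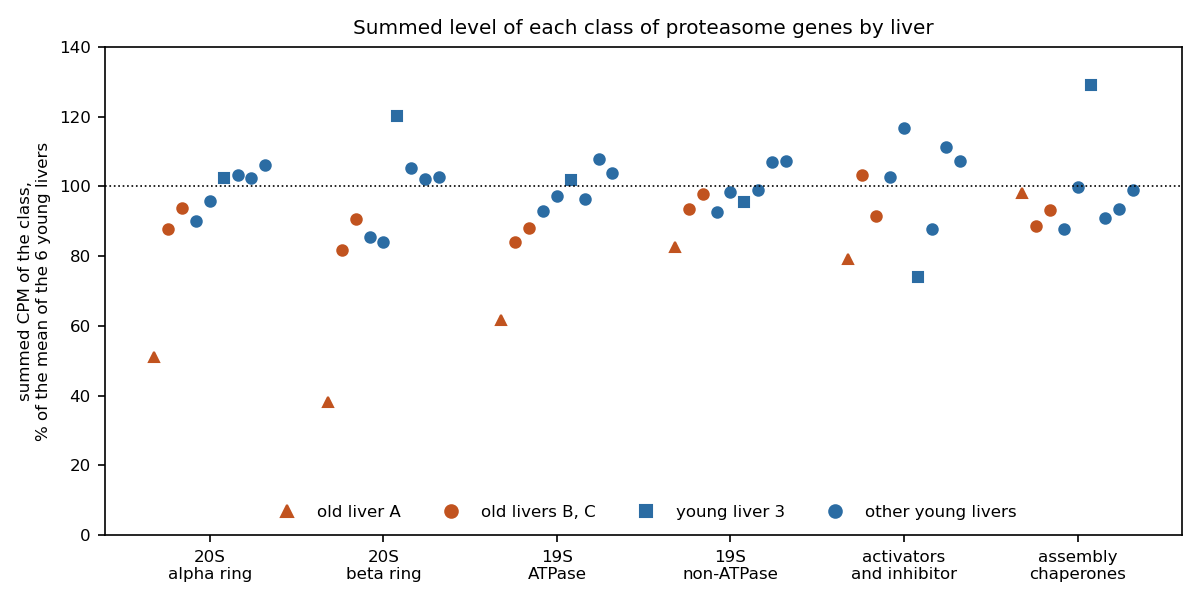
Summed CPM of each class of proteasome genes in each liver, as percent of the mean of the 6 young livers (dotted line at 100). Old liver A (triangle) is lowest in the beta ring, with 289 CPM against a young mean of 759 CPM, and reaches the other livers in the assembly chaperones, where young liver 3 (square) is highest with 232 CPM.

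Old livers B and C were close to each other, with a Spearman correlation of 0.986 across the 42 genes, and close to the young livers other than young liver 3. Taken without A, both lay below all young livers in 8 of the 42 genes, compared with a smaller share of all genes, 11.1%. They lay above them in 2 of the 42 (PSMD3 and PSMD4), compared with a larger share of all genes, 13.2%. The 8 were the same as with all old livers. In edgeR without liver A, 0 of the 42 genes passed in either direction, beside 1.35% of all genes lower and 2.13% higher. In that fit 1 of the 42, PSMA3, was at an unadjusted p under 0.05.

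The makeup of each subcomplex was compared as the share of its counts that fell on each gene, which library scaling leaves unchanged. These shares are not corrected for gene length and are compared between livers only. PSMB1 took 25.1%, 19.8% and 19.5% of the beta ring counts in old livers A, B and C, against 16.6% ± 0.464 in young livers (SD, n = 6), and the groups did not overlap. Its level was not raised, with 72.5, 123 and 135 CPM in old livers A, B and C, against 106 to 157 CPM in young livers (log2FC -0.20). PSMB5 took 7.51% in old liver A, 20.5% and 20.1% in B and C, and 20.8% ± 3.58 in young livers (SD, n = 6), where young liver 3 was lowest with 13.5%. PSMD3 took 40.2%, 21.1% and 22.1% of the counts of the non-ATPase cap genes in old livers A, B and C, and 15.5% to 18.0% in young livers, again without overlap. In none of the other subunits of the core and the cap were the shares of old and young livers separate. Between subcomplexes, the ratio of 19S to 20S counts was 2.29, 1.39 and 1.33 in old livers A, B and C and 1.1 to 1.42 in young livers, so that only A lay outside. Non-ATPase over ATPase counts gave 3.40, 2.82 and 2.81 in old livers A, B and C, and 2.38 to 2.62 in young livers. Without PSMD3 the ratio was 2.03, 2.23 and 2.19 in old livers A, B and C, against 1.99 to 2.18 in young livers, so that A lay inside the young range and B and C were just above it.

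**Figure D5:**
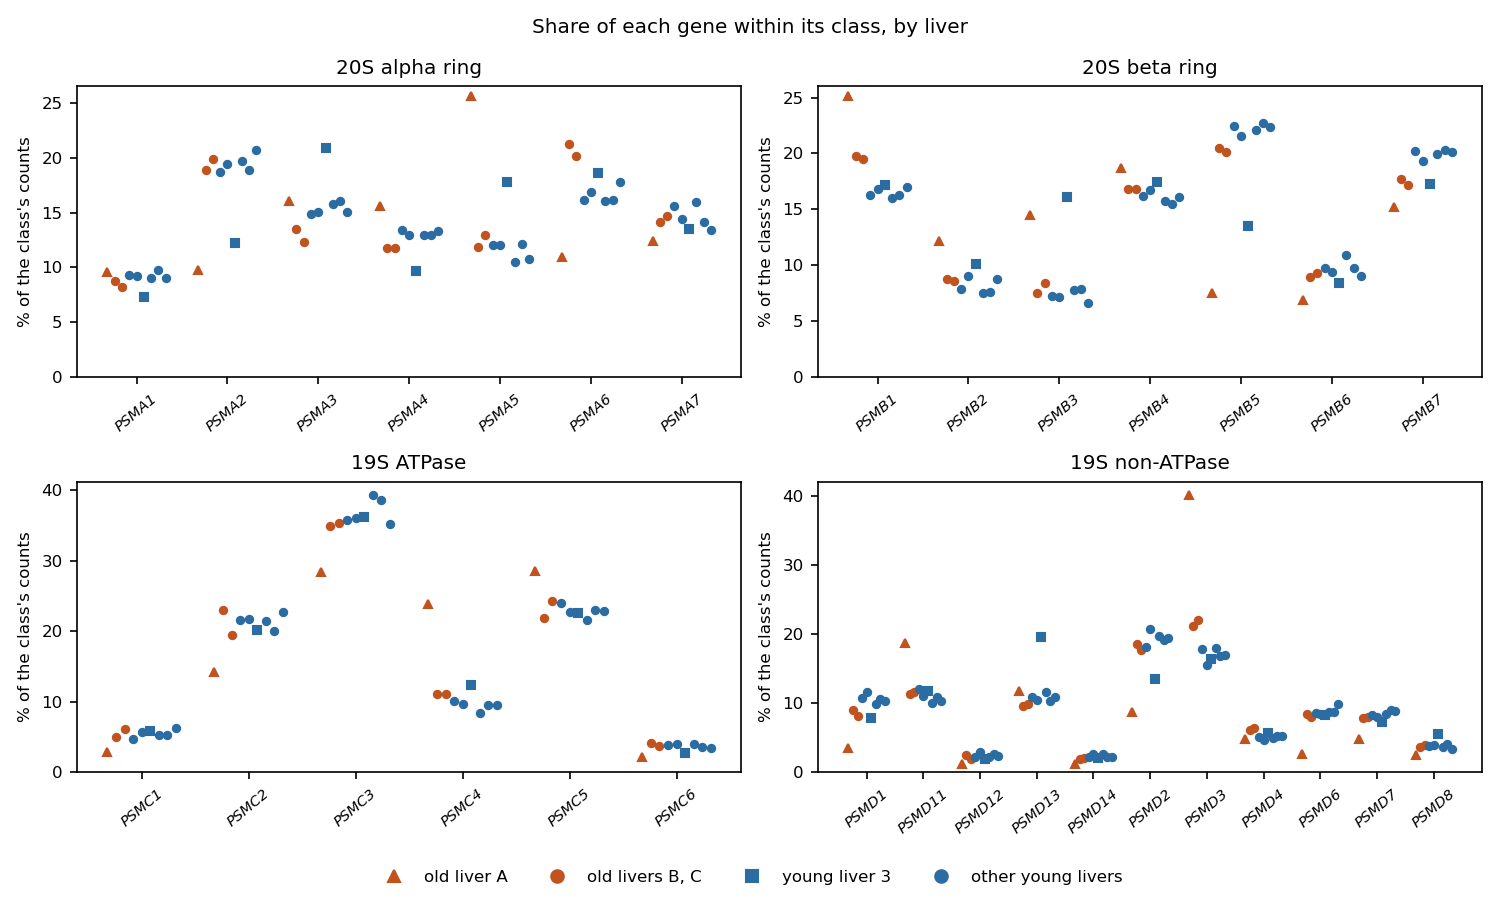
Share of each gene in the summed counts of its class (percent), for the 3 old livers (orange, old liver A as triangle) and the 6 young livers (blue, young liver 3 as square). Old livers lie above all young ones in PSMB1 (25.1%, 19.8% and 19.5%) and in PSMD3 (40.2%, 21.1% and 22.1%), and overlap them elsewhere.

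Other tools made more calls in these genes and in the table as a whole. DESeq2 called 4 of the 42 genes down-regulated (POMP, PSMA3, PSMB7 and PSMC3), against 8.72% of all genes, and 1 up-regulated (PSMD3), against 14.5% of all genes. limma voom with quality weights called 8 down-regulated (POMP, PSMA1, PSMA3, PSMA4, PSMB7, PSMC3, PSMD1 and PSMD14), against 16.8% of all genes, and 2 up-regulated (PSMD3 and PSMG4), against 20.5% of all genes. With old liver A and young liver 3 both left out, edgeR called 3 down-regulated (POMP, PSMA3 and PSMD1), against 11.7% of all genes, and 1 up-regulated (PSMG4), against 14.2% of all genes. POMP and PSMA3 were the genes that all 3 of these fits called down-regulated, at log2FCs of -0.86 and -0.64 with DESeq2, -0.48 and -0.41 with limma voom, and -0.47 and -0.39 without these 2 livers.

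Of 4 further parts of the proteasome that the name rule misses, none passed the threshold, with a median log2FC of -0.41. These were the ubiquitin receptor ADRM1 (0.15), the deubiquitinases USP14 (-0.38) and UCHL5 (-0.62), and SHFM1 (-0.45), a small lid subunit. Among 20 ubiquitin receptors and shuttle genes 1 was up-regulated and 0 were down-regulated, beside 11.7% and 3.65% of all genes. This was NPLOC4, a cofactor of the unfoldase VCP, with 253, 67.6 and 69.5 CPM in old livers A, B and C, against 45.9 to 62.3 CPM in young livers (log2FC 1.21, edgeR FDR 0.0781). Without liver A it was at 0.29 (edgeR FDR 0.368, the highest of 18 alternative fits that began at 0.0327). VCP itself was at -0.34 (edgeR FDR 0.511). Of 30 genes for ubiquitin, its activating and conjugating enzymes and common ligases and deubiquitinases, 1 was up-regulated and 0 were down-regulated, beside the same shares of all genes. This was UBE2G2, a conjugating enzyme that acts at the endoplasmic reticulum (log2FC 0.84, edgeR FDR 0.0645, and 0.49 without liver A, FDR = 0.171).

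Of 21 genes known to regulate proteasome genes or activity, 3 were up-regulated and 0 down-regulated, with a median log2FC of 0.31. Among all genes tested 11.7% were up-regulated and 3.65% down-regulated, so that 3 of 21 is near that background. STAT3, a transcription factor of the cytokine response, had 765, 483 and 415 CPM in old livers A, B and C and 214 to 278 CPM in young livers (log2FC 1.13, edgeR FDR 0.0395, 0.103 without young liver 2 and past the threshold in the other 17 alternative fits). FBXO7, which binds the inhibitor PSMF1, had 137, 80.0 and 88.2 CPM in old livers A, B and C, against 55.5 to 75.9 CPM in young livers (log2FC 0.73, edgeR FDR 0.0767, and 0.45 without liver A, FDR = 0.202). MAFG, the small partner of NFE2L1 on DNA, had a log2FC of 0.90 (edgeR FDR 0.0782, 0.0530 without liver A) but overlapped between the ages, with 15.1, 33.8 and 30.4 CPM in old livers A, B and C and 9.77 to 17.6 CPM in young livers. NFE2L1 itself had 58.6, 43.9 and 44.1 CPM in old livers A, B and C, and 12.7 to 36.6 CPM in young livers. All old livers thus lay above all young ones, while the FDR stayed over the threshold (log2FC 0.82, SE 0.29, edgeR FDR 0.102). Over the 18 alternative fits its FDR ranged from 0.0122 to 0.293, and 6 passed. Its relative NFE2L2 was at 0.31 (edgeR FDR 0.423).

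Of the 5 inducible genes left out by the rule, 1 was up-regulated and 0 were down-regulated, beside 11.7% and 3.65% of all genes. PSMB8, which replaces PSMB5 in the immunoproteasome, had 1.68, 7.98 and 7.93 CPM in old livers A, B and C, against 1.71 to 3.34 CPM in young livers (log2FC 1.34, edgeR FDR 0.0849). Its level in old liver A was below all young livers, and without A the log2FC was 1.77 (edgeR FDR 0.0230). PSMB8, PSMB9 and PSMB10 together made 13.8%, 11.4% and 9.49% of the counts of inducible and constitutive catalytic subunits in old livers A, B and C, and 2.29% to 9.85% in young livers, where the highest value was that of young liver 3. Their summed level was 13.7, 37.7 and 33.7 CPM in old livers A, B and C, against 9.93 to 39.0 CPM in young livers, so that the highest share, in liver A, went with a sum within the young range and the lowest levels of PSMB5, PSMB6 and PSMB7. As calls, PSMB8 and MAFG were each lost without old liver B or C, at an FDR of 0.143 to 0.181, and with upper quartile scaling, at 0.105 and 0.107. Without any 1 of young livers 2, 4, 5 and 6, none of PSMB8, MAFG, FBXO7, UBE2G2 and NPLOC4 passed, at an FDR of 0.121 to 0.162, and without young liver 1 the calls of PSMB8, MAFG and NPLOC4 were lost (0.103 to 0.123), while in all of these fits the log2FC stayed above 0. Calls fell over the whole table as well when a young liver of these 5 was left out. The share of all genes called higher was 1.02% to 2.53% without young liver 2, 4, 5 or 6 and 6.43% without young liver 1, against 11.7% with all livers.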

How the data were processed

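Liver RNA of 3 old and 6 young male naked mole-rats was sequenced by the authors, 1 library per animal. The table holds unnormalized read counts, which the authors obtained from single-end reads of polyadenylated RNA by mapping with STAR (version 2.4.1d) and counting with HTSeq. No version or strand setting of HTSeq is given in the sources used here. Reads that fit several places equally were not kept, so a gene with a near-identical copy can be undercounted. Of the 16339 rows, 787 have no count in any liver. Left out were 93 rows whose alphabetical order differs with letter case (0.319% of counts), and 25 rows whose symbols had turned into dates (0.133%), none of them a proteasome gene. The 93 rows looked misaligned between the ages, which was not tested. With the rows left out put back, POMP (edgeR FDR 0.0972) and PSMA3 (edgeR FDR 0.0999) passed the threshold as lower.

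The comparison of old with young livers used R 4.3.3 and the quasi-likelihood F-test of edgeR 4.0.16 (TMM scaling, filterByExpr on the age groups, robust glmQLFit) with no covariate. P-values were adjusted by Benjamini-Hochberg over all 12277 genes that passed the filter, at an FDR threshold of 0.1. CPM refer to TMM-scaled library sizes. The SE of each log2FC was taken as its absolute value over the square root of F. Deviations from the young mean use log2(CPM + 0.5). Totals ranged from 14541856 to 20464409 counts per liver. No 2 libraries agreed within sampling noise (lowest chi-square per degree of freedom 29.0), and each library was treated as 1 replicate. The fits were tested on simulated counts.

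Alternatives were other scalings, DESeq2 1.42.0, limma 3.58.1 (voom with quality weights), other filters on low counts, an FDR of 0.05, the rows left out put back, and leaving out livers. Values in every liver were given for genes past the threshold, PSMB4 and PSMG1, the catalytic subunits, the gene of lowest p and of highest mean CPM in each class, and genes with a positive log2FC and no overlap. Further genes were named after their values were seen. The proteasome genes, the gene lists and the rows left out were chosen with earlier results of these data known. Sequences and genomic positions are not reported here, since the reference table at hand describes another build.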

Additional observations from a re-analysis of the deposited data

Results flagged for a closer look

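Among the 6 young livers, 1 value lay far from the other 5 in 10 of 50 tests of single genes and class sums, where chance flags about 1 in 20, or 2.5 of 50. The measure is the gap from the extreme liver to its nearest neighbour divided by the range of the group, and the critical value for 6 livers was exceeded. Young liver 3, the oldest of the young animals, was the extreme one in all but 1. It was the highest in PSMG4 (gap 0.966, 40.5 CPM), PSMB3 (0.839, 147 CPM), PSMD13 (0.803, 207 CPM), PSMA5 (0.793, 80.1 CPM), POMP (0.752, 48.8 CPM), PSMG3 (0.713, 31.0 CPM) and the summed assembly chaperones (0.709, 232 CPM). It was the lowest in PSMF1 (0.711, 24.5 CPM) and PSMC6 (0.683, 12 CPM). In PSMA7, young liver 4 was the highest (0.740, 72.4 CPM). The 50 tests share the same livers, and the class sums share genes with the single tests, so they are not independent. The measure was not taken over all genes, so the flags are not shown to be particular to proteasome genes. Of all genes, young liver 3 was the lowest of the 9 livers in 17.8% and the highest in 15.7%. The cause was not tested.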

How the results depend on the processing

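In edgeR, 0 of the 42 proteasome genes passed in either direction with upper quartile scaling, without a filter on low counts, at an FDR of 0.05, without old liver A or B and without any young liver but the oldest. Calls over all genes varied widely between these fits. At an FDR of 0.1, 0.507% (without young liver 2) to 3.62% (without old liver B) of all genes were lower, and 1.02% to 16.5% were higher in the same 2 fits. The number lower in old livers was 2 with DESeq2 size factors, 1 when TMM ignored the 50 most counted genes, 1 with at least 10 counts in every liver, 2 with the rows left out put back, 4 with DESeq2 and 8 with limma voom, and the number higher was 1 with DESeq2 and 2 with limma voom. In the same order, 3.92%, 3.71%, 3.94%, 4.22%, 8.72% and 16.8% of all genes were lower. Of all genes, 14.5% were higher with DESeq2 and 20.5% with limma voom. Without old liver A and young liver 3 together, 3 were lower and 1 was higher, beside 11.7% and 14.2% of all genes. Leaving out each liver in turn gave 0 to 2 lower (2 without young liver 3, 1 without old liver C) and 0 to 1 higher (1, PSMG4, without young liver 3). Of all genes, 7.06% were lower and 17.0% higher without young liver 3, and 4.33% were lower without old liver C. The median log2 fold change, -0.40 as reported, was -0.15 with limma voom and -0.15 without both livers, and -0.57 (without C) to -0.16 (without A) with 1 liver left out. The cause was not tested. For the 14 genes with values in every liver, 208 of 252 alternative values kept sign and side of the threshold, 21 passed it only in the alternative, 7 (all PSMC3IP) no longer passed it, and 16 changed sign. These were PSMD5 (-0.011 with limma voom, -0.033 without both livers, and -0.022 without A to 0.539 without C with 1 liver left out), PSME4 (-0.032 with upper quartile scaling, -0.134 with limma voom, -0.105 without both livers, and -0.047 without young liver 3 to 0.122 without C with 1 liver left out) and PSMG1 (0.021 with limma voom, 0.001 with at least 10 counts in every liver and without both livers, and -0.091 without C to 0.043 without B with 1 liver left out). No paired analysis was possible because the labels give the old and young animals no shared replicate numbers. With 3 old livers, 1 of which stands apart, standard errors of 0.18 to 0.50 on the log2 scale limit what could be detected, so a gene that missed the threshold is not shown to be equal between the ages.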
